A study of Mus musculus with 5 samples.

Results

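Collagen chain genes were taken as all genes whose symbol is Col, digits, a and digits in full, which selected 44 of the 31053 genes counted. Their UMIs (unique molecular identifiers, each standing for 1 captured RNA molecule) were followed in 5 single-cell libraries of sorted mouse liver cells, each library being the whole of its group. All 5 came from male Rosa26mTmG;Col1a1-Cre mice on the C57BL/6J background, in which a Col1a1 promoter drives Cre and leaves green fluorescence in cells that have used that promoter, whether or not they still do. The VitA+Col1a1+ DEN+WAD, VitA-Col1a1+ DEN+WAD and VitA-Col1a1- DEN+WAD groups received diethylnitrosamine (DEN, a liver carcinogen) at 10 mg/kg when 2 weeks old, and then a liquid Western alcohol diet (WAD) with ethanol at 3.5% v/v for 5 months from 6 weeks of age. The VitA+Col1a1+ chow and VitA-Col1a1+ chow groups received saline and chow on the same schedule. Nonparenchymal cells were freed with pronase and collagenase and sorted on the green reporter and on the autofluorescence of vitamin A (VitA), which marks the retinoid droplets of hepatic stellate cells. How many mice went into a library, and whether they were pooled, is not given in the sources used here.

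Collagens are extracellular matrix proteins of 3 chains wound around each other in a triple helix. Fibrillar collagens (types I, III and V in liver) form the cable-like fibres of scar, the type IV network underlies basement membranes, type VI forms beaded microfilaments, and FACIT collagens such as types XII, XIV and XVI decorate the surface of fibrils. In liver, hepatic stellate cells and portal fibroblasts are the main source of fibrillar collagen, while sinusoidal endothelial cells lie against a sparse matrix that holds type IV collagen.

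The stretches before the starts of 5 members that the results turn on are shown first, read from RefSeq on GRCm38.p6. They are the 250 bases before the start of Col3a1 (the most abundant fibrillar chain), of Col15a1 (with no UMI in 1 library) and of Col13a1 (the chain with its own highest level in endothelial cells), and the 71 bases that separate the starts of Col4a4 and Col4a3, which are read in opposite directions from that stretch. Capitals mark TATAAA, the only one of the 3 motifs searched that occurs in the 4 stretches.
Col3a1, chr1:45311288-45311537, plus strand: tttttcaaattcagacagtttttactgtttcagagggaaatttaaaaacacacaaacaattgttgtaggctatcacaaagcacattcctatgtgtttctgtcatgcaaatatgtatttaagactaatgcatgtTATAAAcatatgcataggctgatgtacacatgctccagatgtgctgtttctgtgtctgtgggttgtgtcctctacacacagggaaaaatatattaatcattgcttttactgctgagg
Col15a1, chr4:47207762-47208011, plus strand: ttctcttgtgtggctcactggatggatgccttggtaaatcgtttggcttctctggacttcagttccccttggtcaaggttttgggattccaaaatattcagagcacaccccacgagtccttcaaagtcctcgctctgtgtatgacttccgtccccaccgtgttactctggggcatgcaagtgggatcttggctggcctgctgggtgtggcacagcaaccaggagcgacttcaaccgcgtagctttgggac
Col13a1, chr10:61979109-61979358, minus strand: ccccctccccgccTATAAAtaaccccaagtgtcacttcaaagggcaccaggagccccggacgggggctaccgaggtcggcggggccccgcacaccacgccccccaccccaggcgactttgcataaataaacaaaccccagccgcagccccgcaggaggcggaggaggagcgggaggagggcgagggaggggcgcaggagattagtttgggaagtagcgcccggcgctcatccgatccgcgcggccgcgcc
Col4a4 to Col4a3, chr1:82586850-82586920, minus strand: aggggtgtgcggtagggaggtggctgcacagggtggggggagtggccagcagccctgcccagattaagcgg
TATAAA lies 117 bases before the start of Col3a1 and 237 bases before that of Col13a1, and is absent from the Col15a1 and Col4a4 stretches. RefSeq held 38 windows of 250 bases for 35 of the 44 members. On either strand, TATAAA was in 5 of these 38 windows against 12.4% of all 32841 windows, CCAAT in 13 against 33.9%, and GGGCGG in 22 against 32.7%. A match is only a run of letters and says nothing of which factor binds.

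The libraries held 10481 cells (VitA+Col1a1+ DEN+WAD), 2729 (VitA-Col1a1+ DEN+WAD), 259 (VitA+Col1a1+ chow), 668 (VitA-Col1a1+ chow) and 9870 (labelled VitA-Col1a1-), with 6145748 to 149936344 UMIs in all. Levels are given as CPM, a gene's UMIs per 1000000 UMIs of the library or cell class. Reads come from the 3′ end of the RNA, so UMIs are not scaled to gene length. Each group is 1 library, so no test is possible. The 95% intervals cover counting error only, and a difference outside them may still lie within the spread between mice. The library labelled VitA-Col1a1- did not match its label in RNA: its cells held Col1a1 at 1062 CPM against 958 CPM in VitA-Col1a1+ DEN+WAD, and it is called the library labelled VitA-Col1a1- throughout. It also stood apart in other cells' RNA, with 4888 CPM for 5 hepatocyte markers (all 5 detected, 23.3 to 417 CPM in the other libraries), 2220 CPM for 4 macrophage markers (all 4 detected, at most 0.651 CPM elsewhere) and 869 CPM for 3 erythroid markers, and its file header names another software version. Between 0 and 21 cell barcodes were shared by any pair of libraries, at most 0.749% of the smaller one.

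All 44 members together made up 0.606% and 0.625% of the UMIs in the chow and DEN+WAD libraries of the VitA+Col1a1+ gate. The share was 1.29% and 0.793% in the chow and DEN+WAD libraries of the VitA-Col1a1+ gate, and 0.983% in the library labelled VitA-Col1a1-. This share was highest in the VitA-Col1a1+ cells of chow-fed mice and lowest in the VitA+Col1a1+ cells of such mice. Between 33 and 42 members had at least 1 UMI in a library, and 16 to 25 reached 10 CPM. The 26 members that reached 10 CPM in a library or in its mesenchymal, endothelial or macrophage cells are shown in the map of levels by library.

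**Figure D1:**
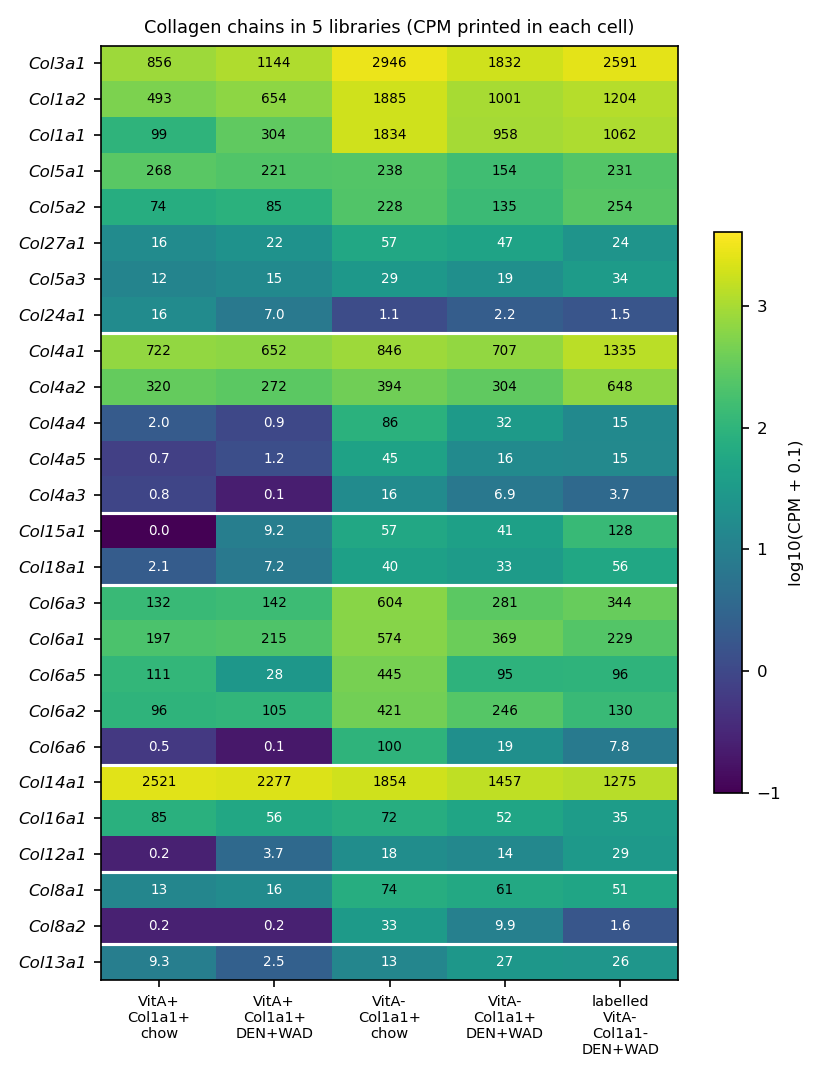
Level of the 26 collagen chains that reached 10 CPM in a library or in its mesenchymal, endothelial or macrophage cells, in each of the 5 libraries. Colour is log10(CPM + 0.1), the number in each square is the CPM, and white lines separate the chain families (fibrillar, basement membrane network, multiplexin, beaded filament, FACIT, short chain network and transmembrane). Col14a1 is the highest chain in both VitA+Col1a1+ libraries, at 2521 and 2277 CPM, and Col3a1 is the highest in the other 3.

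The fibrillar chains came first in the VitA-Col1a1+ cells. Col3a1 (chr1:45311538-45349706), the single chain of type III collagen, stood at 856 and 1144 CPM in the chow and DEN+WAD libraries of the VitA+Col1a1+ gate, at 2946 and 1832 CPM in those of the VitA-Col1a1+ gate, and at 2591 CPM in the library labelled VitA-Col1a1-. An exon of Col3a1 is shared with an annotated gene on the same strand, so a part of its UMIs could have been assigned otherwise. Col1a1 (chr11:94936224-94953042) and Col1a2 (chr6:4504814-4541544) encode the chains of type I collagen, which pair as 2 copies of the first to 1 of the second. Col1a1 had 99.4 and 304 CPM in the VitA+Col1a1+ gate, 1834 and 958 CPM in the VitA-Col1a1+ gate (chow, then DEN+WAD), and 1062 CPM in the library labelled VitA-Col1a1-. Col1a2 had 493 and 654, 1885 and 1001, and 1204 CPM in the same order. Both chains were thus lowest in the VitA+Col1a1+ cells of chow-fed mice and highest in the VitA-Col1a1+ cells of chow-fed mice, and the sort itself used the activity of a Col1a1 promoter.

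Type V collagen, which is built into type I fibrils and helps to set their width, had chains with unlike patterns, Col5a2 following the type I chains among the Col1a1+ libraries and Col5a1 not. Col5a2 was at 73.9 and 85.5 CPM in the VitA+Col1a1+ gate, 228 and 135 CPM in the VitA-Col1a1+ gate and 254 CPM in the library labelled VitA-Col1a1-. Col5a1 ranged only from 154 CPM (VitA-Col1a1+ DEN+WAD) to 268 CPM (VitA+Col1a1+ chow), with 221, 238 and 231 CPM in VitA+Col1a1+ DEN+WAD, VitA-Col1a1+ chow and the library labelled VitA-Col1a1-. Col5a3 ran from 11.6 to 34.0 CPM and Col27a1 from 16.4 to 57.4 CPM. Col24a1 (chr3:145292472-145552011), a minor fibrillar chain, had the opposite order: 16.3 and 7.04 CPM in the VitA+Col1a1+ gate against 1.07 and 2.18 CPM in the VitA-Col1a1+ gate, and 1.54 CPM in the library labelled VitA-Col1a1-.

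Col14a1 (chr15:55307750-55520803), a FACIT chain found on the surface of fibrils, was the most abundant member in the VitA+Col1a1+ cells. It stood at 2521 and 2277 CPM there, at 1854 and 1457 CPM in the VitA-Col1a1+ gate, and at 1275 CPM in the library labelled VitA-Col1a1-. FACIT chains were 43.0% and 37.4% of all collagen UMIs in the VitA+Col1a1+ gate (chow, then DEN+WAD), 15.1% and 19.2% in the VitA-Col1a1+ gate, and 13.6% in the library labelled VitA-Col1a1-. Fibrillar chains took 30.3% and 39.3%, 55.8% and 52.3%, and 54.9% in the same order. The 2 gates thus held collagen of a different make-up, FACIT-led in the VitA+Col1a1+ chow library and fibril-led in the VitA-Col1a1+ libraries. Col16a1, another FACIT chain, lay between 34.6 and 84.6 CPM, and Col12a1 between 0.163 CPM (1 UMI, VitA+Col1a1+ chow) and 29.0 CPM.

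The 2 widespread chains of the basement membrane network were near equal across the 4 Col1a1+ libraries. Col4a1 (chr8:11198423-11312826) stood at 722 and 652 CPM in the VitA+Col1a1+ gate, at 846 and 707 CPM in the VitA-Col1a1+ gate and at 1335 CPM in the library labelled VitA-Col1a1-. Col4a2 (chr8:11312805-11449287), whose start overlaps that of Col4a1 on the other strand, followed it at 320 and 272, 394 and 304, and 648 CPM. The minor chains, best known from the kidney, were instead far higher in the VitA-Col1a1+ libraries. Col4a4 had 1.95 and 0.874 CPM in the VitA+Col1a1+ gate against 86.0 and 32.0 CPM in the VitA-Col1a1+ gate and 14.9 CPM in the library labelled VitA-Col1a1-. Col4a3 had 0.814 and 0.140, 16.3 and 6.91, and 3.66 CPM, and Col4a5 had 0.651 and 1.19, 45.5 and 15.9, and 14.6 CPM.

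Type VI collagen is made of the chains of Col6a1 and Col6a2 and, as the third, that of Col6a3, Col6a4, Col6a5 or Col6a6. Its 2 constant chains were at 197 and 215 CPM (Col6a1) and at 96.3 and 105 CPM (Col6a2) in the VitA+Col1a1+ gate, with the chow library first. In the VitA-Col1a1+ gate they were at 574 and 369 CPM (Col6a1) and at 421 and 246 CPM (Col6a2), and in the library labelled VitA-Col1a1- at 229 and 130 CPM. Col6a3 had 132 and 142, 604 and 281, and 344 CPM. Of the alternatives to Col6a3, Col6a4 was nearly undetected and the others differed more. Col6a5 (chr9:105856078-105960643) had 111 and 27.6 CPM in the VitA+Col1a1+ gate, 445 and 94.9 CPM in the VitA-Col1a1+ gate and 96.0 CPM in the library labelled VitA-Col1a1-. Its neighbour Col6a6 (chr9:105687809-105828160) had 0.488 and 0.100, 99.7 and 19.1, and 7.83 CPM. Both were thus higher in the chow library than in the DEN+WAD library of either gate, although Col6a6 rested on 3 UMIs in VitA+Col1a1+ chow.

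The multiplexins, Col15a1 (chr4:47208161-47313167) and Col18a1 (chr10:77052178-77166548, the source of endostatin), lie in or beside basement membranes. Col15a1 had 0 UMIs in VitA+Col1a1+ chow, for which the floor of 3 UMIs is 0.488 CPM and the exact 95% limit 0.60 CPM, and 9.20 CPM in VitA+Col1a1+ DEN+WAD. It had 57.4 and 41.3 CPM in the VitA-Col1a1+ gate and 128 CPM in the library labelled VitA-Col1a1-. Col18a1 had 2.12 and 7.17, 40.3 and 33.1, and 55.5 CPM in the same order. Of the type VIII short chains, known from vessel walls and the corneal endothelium, Col8a1 ran from 12.9 to 74.3 CPM and Col8a2 from 0.163 CPM (1 UMI, VitA+Col1a1+ chow) to 32.6 CPM, both highest in VitA-Col1a1+ chow.

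The other 18 members stayed under 10 CPM in the libraries and in their mesenchymal, endothelial and macrophage cells. Their highest level among these, in classes of 50 or more cells, was 7.58 CPM for Col4a6, 6.18 for Col25a1, 4.29 for Col23a1, 3.56 for Col11a2, 3.14 for Col17a1, 2.72 for Col7a1, 1.10 for Col20a1 and 1.0 for Col11a1. It was 0.593 CPM for Col9a3, 0.439 for Col28a1, 0.267 for Col9a2, 0.220 for Col10a1, 0.180 for Col22a1, 0.172 for Col26a1, 0.143 for Col6a4, 0.0524 for Col2a1 and 0.0400 for Col9a1. Col19a1 had no UMI in any library. Col4a6, a basement membrane chain, passed 10 CPM in a kind of mesenchymal cell that was split off after seeing the data: it had 27.0 CPM (46 UMIs) in the 85 cells of VitA-Col1a1+ chow whose smooth muscle markers led. In 41 of these 85 cells, stellate or fibroblast markers were within 2 times of the smooth muscle markers. In the libraries Col4a6 had 0 and 0.0800 CPM in the VitA+Col1a1+ gate, 7.53 and 2.41 CPM in the VitA-Col1a1+ gate and 0.946 CPM in the library labelled VitA-Col1a1-. The cartilage chains (types II, IX, X and XI) are all in this group.

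The first question of the design is how carcinogen and diet change these cells, asked within each gate. In the VitA+Col1a1+ gate the summed collagen level was 1.03 times as high with DEN+WAD as with chow (95% interval 1.02 to 1.04), and in mesenchymal cells alone 1.01 times (0.997 to 1.02). Mesenchymal cells are those with summed Dcn, Lum and Colec11 of 20 or more per 10000 UMIs, 94.2% and 97.4% of the cells in the chow and DEN+WAD libraries. Single chains differed in both directions under a near-equal sum. Members were compared where the mean of the 2 libraries was at least 2 CPM, and called higher or lower past 2-fold. A member near 0 in 1 library passed this limit only through the other and could be called in 1 direction alone, here and in all later comparisons. The limit was the same for all genes. Of 22 compared, 3 were higher (Col1a1, Col15a1, Col18a1), where 1.85% of all 11015 genes compared were higher, and 4 were lower (Col6a5, Col13a1, Col24a1, Col25a1), where 4.48% were lower. The other 15 were within 2-fold, and the median log2 ratio of the 22 was 0.11, beside -0.08 over all genes. Scaling by TMM (a trimmed mean of gene ratios) instead of total UMIs shifts every log2 ratio of this comparison by 0.13.

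Col1a1 was 3.06-fold higher with DEN+WAD (2.82 to 3.32), while its partner Col1a2 was 1.33-fold higher (1.28 to 1.38) and Col3a1 1.34-fold higher (1.30 to 1.37). Col15a1, with 1380 UMIs against 0, was at least 18.9-fold higher with the empty library set at 3 UMIs, and its exact interval starts at 15.3. Col18a1 was 3.39-fold higher (1.97 to 6.39), on 13 UMIs in the chow library. Col6a5 was 4.04-fold lower, Col24a1 had a ratio of 0.433 (0.352 to 0.537) and Col25a1, a transmembrane chain, 0.250 (0.176 to 0.367). In mesenchymal cells 3 of 21 members compared were higher (2.06% of all genes) and 3 lower (3.12%), with Col13a1 no longer compared: it had 2.49 CPM against 9.27 CPM in all cells, but 0.163 and 0.344 CPM in mesenchymal cells. Endothelial cells, which carried this chain, were 1.69% of the DEN+WAD library and 3.47% of the chow library.

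In the VitA-Col1a1+ gate the summed level was lower with DEN+WAD, at 0.613 times that of chow (0.610 to 0.617) in all cells and 0.662 times in mesenchymal cells. Of 27 members compared, 8 were lower (Col4a3, Col4a4, Col4a5, Col4a6, Col6a3, Col6a5, Col6a6, Col8a2) against 5.94% of all genes. Only Col13a1 was higher, against 5.33%. The median log2 ratio was -0.64 over these members and -0.03 over all genes. In mesenchymal cells 7 of 27 were lower (6.08% of all genes) and 0 higher (3.14%), and Col13a1 turned: it was 2.07-fold higher in all cells (1.78 to 2.42) but at 1.87 against 2.79 CPM in mesenchymal cells. Endothelial cells were 16.1% of the cells here with DEN+WAD and 5.39% with chow, and their markers summed to 1164 and 426 CPM.

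Col6a6 had the lowest ratio of the members named, 0.192 (0.177 to 0.209), followed by Col6a5 with 0.213 (0.205 to 0.221) and Col8a2 with 0.304 (0.267 to 0.346). Type I collagen was also lower, Col1a1 at 0.522 (0.515 to 0.530) and Col1a2 at 0.531 (0.523 to 0.539), both just inside 2-fold. Col14a1 at 0.786 and Col4a1 at 0.837 differed least among the chains over 500 CPM. The libraries of this gate differed in the kinds of mesenchymal cell they held, so the same ratios were taken within kinds, a comparison added after seeing the data. Each mesenchymal cell was put with the list that had the most summed UMIs in it, of which at least 3 were required: stellate (Lrat, Reln, Ecm1, Hgf, Vipr1, Hhip), fibroblast (Thy1, Fbln2, Cd34, Clec3b, Dpt, Pi16, Mfap4, Entpd2) or smooth muscle (Myh11, Cnn1, Actg2, Pln, Lmod1, Synpo2). Stellate-leading cells were 14.8% of VitA-Col1a1+ chow and 56.0% of VitA-Col1a1+ DEN+WAD, and fibroblast-leading cells 63.0% and 19.8%. These kinds are ranges and not cell types: in VitA-Col1a1+ chow, 32 of the 99 stellate-leading and 73 of the 421 fibroblast-leading cells had a second list within 2 times of the first.

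Within fibroblast-leading cells of this gate, Col6a5 was the only member of 28 compared to pass 2-fold between DEN+WAD and chow, at 245 against 586 CPM, 2.39-fold lower. No member was higher, where 1.53% of all genes were higher and 2.40% lower. Col6a6 was at 72.2 against 140 CPM, a ratio of 0.517 (0.474 to 0.564), and Col1a1 at 1811 against 2162 CPM, a ratio of 0.838 (0.822 to 0.854). Col4a4, with a ratio of 0.372 in all cells, had 0.861 (0.794 to 0.934) here. Col4a6, 2.41 against 7.53 CPM in all cells, had 7.31 against 5.86 CPM here, a ratio of 1.25 (0.885 to 1.77). Col15a1 had 103 against 79.1 CPM, 1.30 times as much (1.19 to 1.43), and Col18a1 24.8 against 23.0 CPM, a ratio of 1.08 (0.906 to 1.29). Within stellate-leading cells 7 of 25 were lower (6.85% of all genes) and 0 higher (3.11%): Col6a5, Col6a6, Col4a4, Col8a2, Col5a3, Col8a1 and Col18a1. Col18a1 had 29.9 against 65.5 CPM there (0.456, 0.379 to 0.553) and Col15a1 25.7 against 22.8 CPM (1.13, 0.835 to 1.55). Col6a5 was thus lower with DEN+WAD in both kinds of this gate and also in the stellate-leading cells of the VitA+Col1a1+ gate, where it had 27.3 CPM against 115 CPM in chow. In every one of these pairs fewer cells that make a chain and less RNA per cell cannot be told apart in a summed level.

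**Figure D2:**
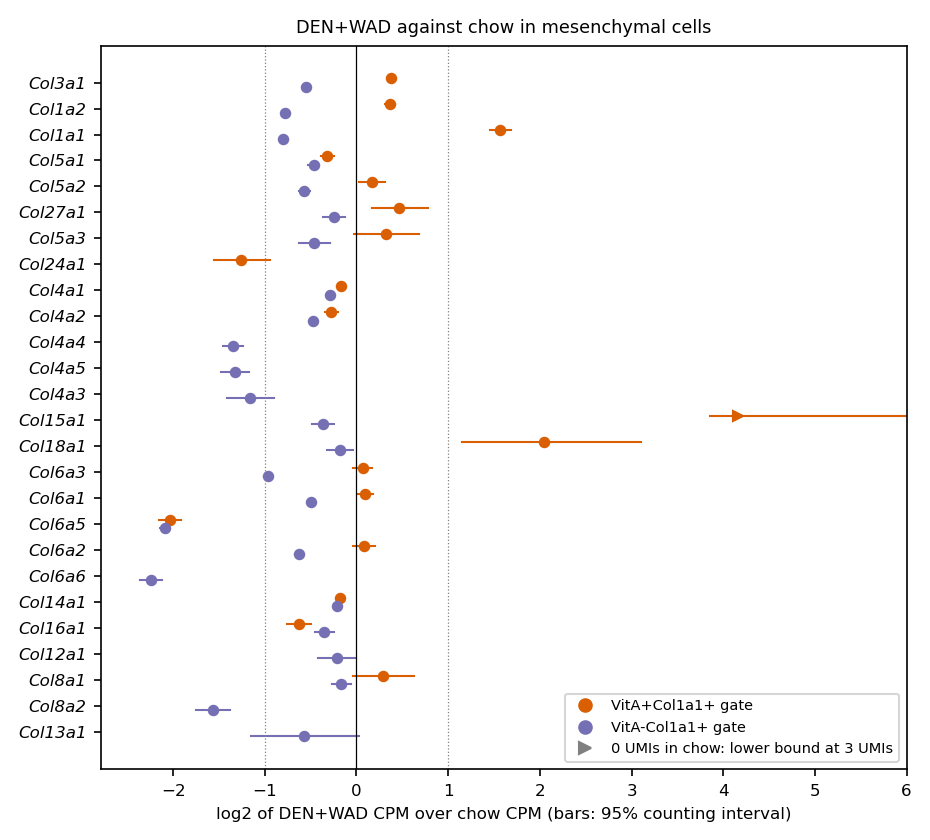
Log2 of the DEN+WAD level over the chow level for each named chain in mesenchymal cells, with the VitA+Col1a1+ gate in orange and the VitA-Col1a1+ gate in purple. Bars are 95% counting intervals, dotted lines mark 2-fold, the triangle is a lower bound for a chain with 0 UMIs in the chow library, whose interval is open to the right, and chains under the limit for comparison have no point. Col6a5 lies near -2 in both gates, while Col1a1 (1.57 and -0.81), Col15a1 and Col18a1 lie on opposite sides of 0. Within stellate-leading and within fibroblast-leading cells of the VitA-Col1a1+ gate Col15a1 was above 0 (0.17 and 0.38), and Col18a1 was at -1.13 and 0.11.

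The second question is how the gates differ under the same treatment. With chow, the summed collagen level of the VitA-Col1a1+ library was 2.13 times that of the VitA+Col1a1+ library (2.11 to 2.16). Of 29 members compared, 20 were higher, beside 12.5% of all genes, and Col24a1 and Col25a1 were lower, beside 5.75%. Chains near 0 in VitA+Col1a1+ chow, such as Col4a6, Col6a6, Col8a2 and Col12a1, entered only through the VitA-Col1a1+ library and could only be called higher. The median log2 ratio was 1.94, beside 0.08 over all genes. Col1a1 was 18.4-fold higher (17.0 to 20.0), Col18a1 19.0-fold (11.0 to 36.0), and Col15a1 at least 118-fold with an interval from 95.4. Col6a6 (1495 UMIs against 3) had a ratio of 204 with an interval of 69.7 to 991, and Col4a4 of 44.1 (25.1 to 85.5). Col1a2 and Col3a1 were 3.82-fold (3.68 to 3.97) and 3.44-fold (3.34 to 3.54) higher, smaller ratios than that of Col1a1. In mesenchymal cells 20 of 28 were higher (13.0% of all genes) and 2 lower (6.70%). The mesenchymal cells of these libraries were of different kinds, 93.8% of the cells of the VitA+Col1a1+ library being stellate-leading against 14.8% of the VitA-Col1a1+ library. Within stellate-leading cells the summed level was 1.84 times as high (1.81 to 1.87), 17 of 26 members were higher (9.63% of all genes) and 2 lower (4.98%), and the median log2 ratio was 1.46 beside 0.09 over all genes. By a stricter rule (3 or more stellate markers and fewer than 3 of each other list) the summed ratio was smaller, on 49 cells of VitA-Col1a1+ chow.

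With DEN+WAD the 2 gates lay closer together, and the summed level of the VitA-Col1a1+ library was 1.27 times that of the VitA+Col1a1+ library (1.26 to 1.27). Here 14 of 27 members were higher (10.7% of all genes) and Col24a1 was lower (1.71%), with a median log2 ratio of 1.08 beside 0.10 over all genes. Col1a1 was 3.15-fold higher (3.11 to 3.19), Col15a1 4.48-fold and Col18a1 4.62-fold. The chains that were nearly absent from VitA+Col1a1+ cells differed most: Col6a6 with a ratio of 191 (115 to 343), Col8a2 with 59.4 (39.8 to 92.8), Col4a3 with 49.3 (31.7 to 80.7) and Col4a4 with 36.6 (30.6 to 44.1). Each of these was compared only through its level in the VitA-Col1a1+ library. In mesenchymal cells 14 of 26 were higher (7.83% of all genes) and 1 lower (1.80%). Stellate-leading cells were 96.7% of the VitA+Col1a1+ library and 56.0% of the VitA-Col1a1+ library. Within them the summed level was 1.22 times as high (1.22 to 1.23), and 8 of 23 members were higher (Col1a1, Col4a4, Col4a5, Col6a5, Col8a1, Col12a1, Col15a1 and Col18a1, with 4.63% of all genes higher). By the stricter stellate rule the summed ratio was smaller here too. Col24a1 was lower in stellate-leading cells (0.795% of all genes), and the median log2 ratio was 0.70 beside 0.03. TMM scaling shifts every log2 ratio of this comparison by -0.17. Whether the gates differ less with DEN+WAD than with chow was not tested, since each value comes from 1 library.

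Among the Col1a1+ libraries, the share of mesenchymal cells with a Col1a1 UMI followed the order of the Col1a1 level at a fixed depth. With every cell thinned to 2000 UMIs, it was 13.3% (Clopper-Pearson 95% interval 9.26 to 18.2) in VitA+Col1a1+ chow and 21.5% (20.7 to 22.3) in VitA+Col1a1+ DEN+WAD. It was 85.0% (81.9 to 87.8) in VitA-Col1a1+ chow, 57.4% (55.2 to 59.5) in VitA-Col1a1+ DEN+WAD and 77.4% (76.0 to 78.7) in the library labelled VitA-Col1a1-. Endothelial cells, taken as a class that should lack the chain, gave 1.71% to 2.93% in the 3 DEN+WAD libraries, and macrophages gave 1.91% for Col1a1. Unthinned, the shares of mesenchymal cells were 56.6% and 52.6% in the VitA+Col1a1+ gate and 97.5% and 84.9% in the VitA-Col1a1+ gate, with 84.0% in the library labelled VitA-Col1a1-, and the order of the VitA+Col1a1+ libraries turned. The order of VitA-Col1a1+ DEN+WAD and the library labelled VitA-Col1a1- turned as well. The chow cells of the VitA+Col1a1+ gate were deeper, with medians of 24306 against 13286 UMIs. For Col15a1 the thinned share was 0 of 241 mesenchymal cells in VitA+Col1a1+ chow, which the exact interval limits to 1.52%, against 0.874% (0.702 to 1.08) with DEN+WAD, so the 2 shares overlap. Most VitA+Col1a1+ cells with DEN+WAD therefore had no Col15a1 UMI at this depth. For Col6a5 it was 17.4% (12.9 to 22.8) with chow and 4.90% (4.49 to 5.34) with DEN+WAD.

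The third comparison sets the library labelled VitA-Col1a1- against VitA-Col1a1+ DEN+WAD. The summed collagen level was 1.24 times as high (1.24 to 1.25) in all cells, but 2.04 times as high in mesenchymal cells, which were 46.6% of the one library and 79.9% of the other. In all cells 3 of 26 members were higher (Col4a2, Col12a1, Col15a1, with 10.1% of all genes higher) and 3 lower (Col4a4, Col6a6, Col8a2, with 6.72% lower). In mesenchymal cells 11 of 27 were higher (5.12% of all genes) and 1 was lower (4.89%), with a median log2 ratio of 0.56 beside 0.05 over all genes. Col15a1 was 5.14-fold higher there (4.90 to 5.40), Col4a2 3.81-fold (3.73 to 3.89), Col12a1 3.43-fold (3.15 to 3.75), Col4a1 3.21-fold (3.16 to 3.25), Col5a2 3.12-fold (3.04 to 3.21) and Col3a1 2.35-fold (2.33 to 2.36). The type VI chains Col6a1 and Col6a2 had ratios of 1.01 (0.990 to 1.03) and 0.861 (0.840 to 0.884). Col8a2 was the chain that was lower, at 0.262 (0.217 to 0.315). Hepatocyte, macrophage and erythroid RNA and the software version moved with this contrast, and their part in it was not tested.

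Cells were next compared within libraries. Endothelial cells are those with at least 3 of Pecam1, Cdh5, Kdr, Stab2 and Ptprb, and macrophages those with at least 3 of C1qa, C1qb, Csf1r and Adgre1. A cell meeting more than 1 rule was kept out, which removed 815 cells of the library labelled VitA-Col1a1- and at most 44 elsewhere. Enough endothelial cells were present in 3 libraries (177 and 440 in the DEN+WAD libraries of the VitA+Col1a1+ and VitA-Col1a1+ gates, and 2361 in the library labelled VitA-Col1a1-), and macrophages in the last (753), with 0 macrophages in the other 4 libraries. In that library all members summed to 18333 CPM in mesenchymal cells, 1421 CPM in endothelial cells and 162 CPM in macrophages. Endothelial cells held 1366 and 1539 CPM in the VitA+Col1a1+ and VitA-Col1a1+ DEN+WAD libraries, so their collagen level was near the same in all 3.

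**Figure D3:**
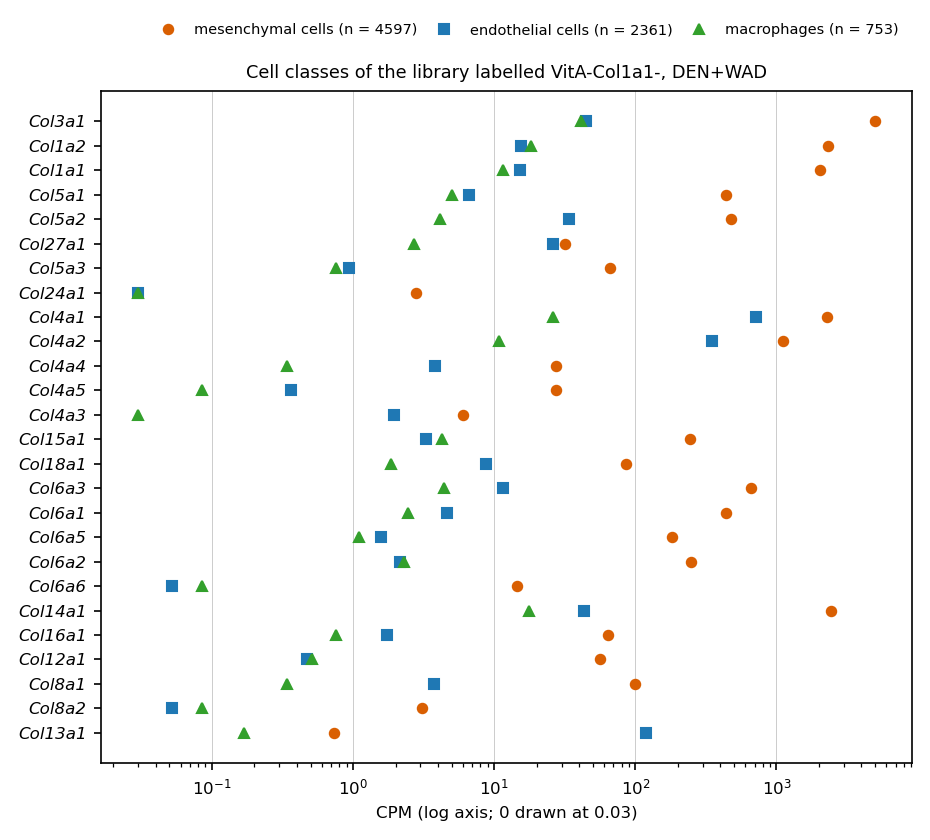
Level of the named chains in mesenchymal cells (circles), endothelial cells (squares) and macrophages (triangles) of the library labelled VitA-Col1a1-, on a log axis of CPM with 0 drawn at 0.03. Most chains lie far to the right in mesenchymal cells, Col13a1 is the one named chain that is highest in endothelial cells (120 CPM), and Col27a1 is near equal in these classes (26.0 and 31.7 CPM).

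Col13a1 (chr10:61838236-61979108), a transmembrane collagen of cell adhesion sites, was the endothelial chain. It had 182, 181 and 120 CPM in the endothelial cells of the VitA+Col1a1+ DEN+WAD, VitA-Col1a1+ DEN+WAD and labelled VitA-Col1a1- libraries, against 0.163, 1.87 and 0.739 CPM in their mesenchymal cells and 0.169 CPM in macrophages (2 UMIs). The endothelial level was 162 times the mesenchymal level in the library labelled VitA-Col1a1- (117 to 231). With cells thinned to 2000 UMIs, 29.7%, 29.0% and 17.7% of endothelial cells had a Col13a1 UMI, against 0.00994%, 0.282% and 0.201% of mesenchymal cells and 0 of 682 macrophages, which the exact interval limits to 0.539%.

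Col4a1 and Col4a2 were made by both classes. Col4a1 stood at 703, 754 and 714 CPM in endothelial cells of the 3 libraries, and at 651, 708 and 2269 CPM in mesenchymal cells, so the classes were near equal in the 2 Col1a1+ libraries and the mesenchymal cells higher in the library labelled VitA-Col1a1-. Macrophages held 26.0 CPM of Col4a1, and endothelial cells of the same library 27.5 times as much (24.5 to 30.8). Col27a1 had 27.0, 29.4 and 26.0 CPM in endothelial and 22.1, 50.0 and 31.7 CPM in mesenchymal cells, with 2.71 CPM in macrophages. Col5a2, another fibrillar chain, was also above the macrophage level in endothelial cells of the library labelled VitA-Col1a1-, at 33.8 against 4.15 CPM, 8.13 times as much (6.08 to 11.1).

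The main fibrillar chains of endothelial cells were near their level in macrophages, a class that should lack them. Col3a1 was at 44.6 CPM in endothelial cells and 40.9 CPM in macrophages of the same library, a ratio of 1.09 (0.974 to 1.22), beside 5000 CPM in mesenchymal cells. Col1a1 was somewhat higher in endothelial cells, at 15.3 CPM (13.6 to 17.1) against 11.5 CPM (9.67 to 13.6), and Col1a2 had a ratio of 0.852 (0.713 to 1.02). In counts, 22 of 25 members were lower in endothelial than in mesenchymal cells of this library (15.8% of all genes) and 2 higher, Col13a1 and Col23a1 (16.6%). In VitA-Col1a1+ DEN+WAD 20 of 26 were lower (16.8%) and 1 higher (21.6%), and in VitA+Col1a1+ DEN+WAD 16 of 21 were lower (15.7%) and 2 higher (23.6%), Col13a1 and Col4a4. The call of Col4a4 rests on 9 endothelial UMIs, and this chain was lower in endothelial cells of VitA-Col1a1+ DEN+WAD and of the library labelled VitA-Col1a1-. In macrophages all 23 members compared were lower than in mesenchymal cells (29.6% of all genes) and none was higher (15.0%). Among the chains under the limit for comparison, Col11a2 had 42 UMIs (3.56 CPM) in macrophages against 7 UMIs (0.140 CPM) in mesenchymal cells, a ratio of 25.5 (11.3 to 67.1), and Col17a1 had 40 UMIs (2.09 CPM) in endothelial cells and 0 in macrophages. Both were singled out after their values were seen.

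Within mesenchymal cells, the fibroblast-leading cells were set against the stellate-leading ones, a comparison also added after seeing the data. In VitA-Col1a1+ DEN+WAD 15 of 27 members were higher in fibroblast-leading cells (7.60% of all genes) and 0 lower (4.72%). In the library labelled VitA-Col1a1- 15 of 27 were higher (6.35%) and 0 lower (3.98%), and in VitA-Col1a1+ chow 10 of 27 were higher (6.80%) and 2, Col8a1 and Col18a1, lower (5.46%). Among members with UMIs on both sides, Col6a6 had the highest ratio in both VitA-Col1a1+ libraries and came after Col8a2 in the library labelled VitA-Col1a1-. It had 140 CPM in fibroblast-leading against 6.45 CPM in stellate-leading cells of VitA-Col1a1+ chow, 72.2 against 1.80 CPM in VitA-Col1a1+ DEN+WAD, and 71.2 against 2.67 CPM in the library labelled VitA-Col1a1-. The ratios were 21.6 (12.6 to 40.8), 40.1 (29.9 to 54.8) and 26.6 (21.5 to 33.3).

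The minor type IV chains went the same way, and the major ones did not. Col4a4 had 118 against 25.3 CPM, 102 against 8.67 CPM and 103 against 12.3 CPM in those libraries. Col4a3 had 22.4 against 2.98 CPM, 23.3 against 1.01 CPM and 22.1 against 2.57 CPM. Fibroblast-leading cells thus held nearly the same level of both chains in all 3 libraries. Col4a1 was lower in fibroblast-leading cells, with ratios of 0.764 (0.729 to 0.802), 0.958 (0.933 to 0.984) and 0.594 (0.582 to 0.605), and Col14a1 likewise, with 0.686, 0.719 and 0.722. Col1a1 was 1.94-, 2.46- and 2.03-fold higher in fibroblast-leading cells. Col24a1 was the stellate-leading chain, at 17.0 and 7.15 CPM in such cells of the VitA+Col1a1+ gate and 2.48 to 3.62 CPM in those of the other 3 libraries, against at most 0.174 CPM (1 or 2 UMIs) in fibroblast-leading cells.

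**Figure D4:**
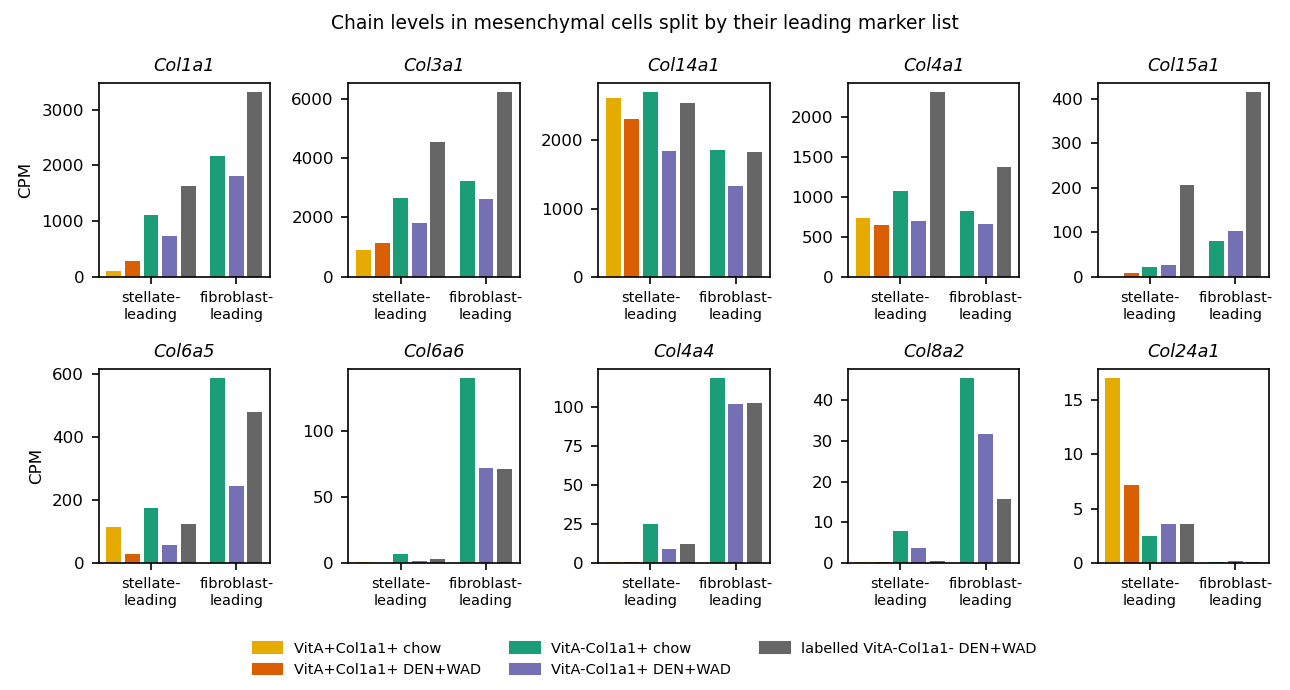
Level in CPM of 10 chains in stellate-leading cells of the 5 libraries and in fibroblast-leading cells of the 3 libraries that held at least 50 of them, with 1 bar per library and a linear axis from 0. Within each library Col6a6, Col4a4 and Col8a2 are taller in fibroblast-leading cells and Col24a1 in stellate-leading cells, and Col6a5 is shorter with DEN+WAD than with chow in each pair of the same gate.

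The stellate-leading cells of the 5 libraries were not alike. Col1a1 stood at 103 and 290 CPM in those of the VitA+Col1a1+ gate (chow, then DEN+WAD), at 1116 and 736 CPM in those of the VitA-Col1a1+ gate, and at 1632 CPM in those of the library labelled VitA-Col1a1-. Col15a1 had 0 and 8.43, 22.8 and 25.7, and 207 CPM in the same order. Among these cells both chains were thus highest in the library labelled VitA-Col1a1-. The smooth-muscle-leading cells (85, 66 and 237 cells in VitA-Col1a1+ chow, VitA-Col1a1+ DEN+WAD and the library labelled VitA-Col1a1-) held Col18a1 at 119, 235 and 226 CPM, the highest level of this chain in any class with 50 cells among the mesenchymal kinds. This kind is a mixed one, since 41, 44 and 143 of these cells had a second list within 2 times of the first.

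Partner chains of 1 protein were compared as ratios of UMIs within a library, which total UMIs do not affect. In mesenchymal cells Col1a1 over Col1a2 was 0.201 (0.184 to 0.220) in VitA+Col1a1+ chow and 0.463 (0.458 to 0.469) in VitA+Col1a1+ DEN+WAD. It was 0.976 (0.959 to 0.993) and 0.961 (0.949 to 0.974) in the VitA-Col1a1+ gate, and 0.882 (0.874 to 0.889) in the library labelled VitA-Col1a1-. The ratio was thus near 1 in every VitA- library and far under it in the VitA+ ones, DEN+WAD lying between chow and the VitA- libraries. Col5a1 over Col5a2 ran the other way, with 3.64 (3.27 to 4.05) and 2.59 (2.54 to 2.65) in the VitA+Col1a1+ gate, 1.10 and 1.17 in the VitA-Col1a1+ gate and 0.921 in the library labelled VitA-Col1a1-. In endothelial cells it was 0.133 to 0.197. Col4a1 over Col4a2, a pair whose starts overlap, kept to between 2.06 and 2.44 in mesenchymal cells of the 5 libraries. Col6a1 over Col6a2 was 2.05 and 2.06 in the VitA+Col1a1+ gate, 1.37 and 1.5 in the VitA-Col1a1+ gate and 1.76 in the library labelled VitA-Col1a1-. Col4a3 over Col4a4, the pair that shares the stretch shown above, was 0.106 (0.0533 to 0.193) in VitA+Col1a1+ DEN+WAD and 0.185 to 0.222 in the 3 VitA- libraries. Col4a5 over Col4a6, also read in opposite directions from starts 1309 bases apart, was 6.1 (4.96 to 7.57) and 6.81 (5.56 to 8.43) in the VitA-Col1a1+ gate. It was higher in the library labelled VitA-Col1a1-, at 15.5 (12.5 to 19.4), and was 14.2 (7.95 to 28.1) in VitA+Col1a1+ DEN+WAD, on 12 UMIs of Col4a6.

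**Figure D5:**
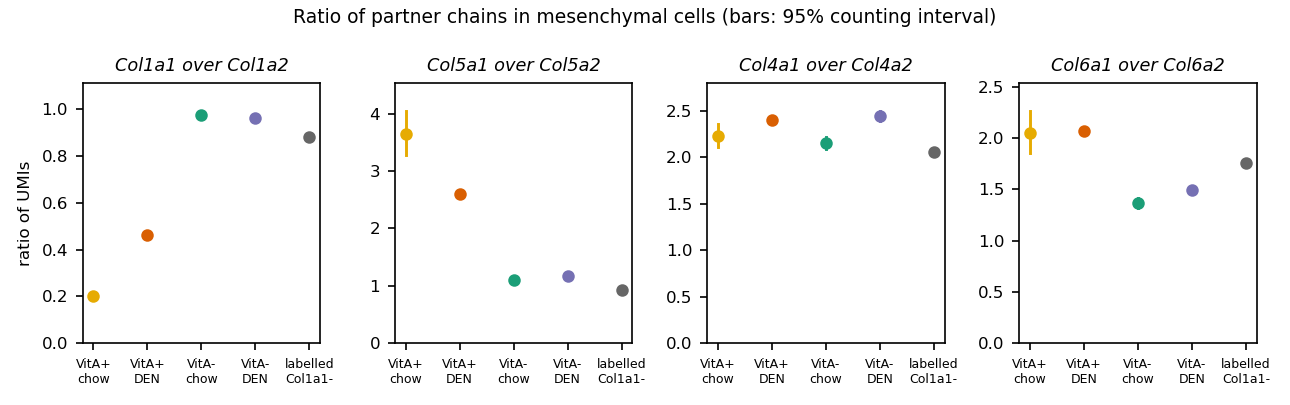
Ratio of UMIs of partner chains in mesenchymal cells of each library (points) with 95% counting intervals (bars), for Col1a1 over Col1a2, Col5a1 over Col5a2, Col4a1 over Col4a2 and Col6a1 over Col6a2. Col1a1 over Col1a2 goes from 0.201 in VitA+Col1a1+ chow to 0.976 in VitA-Col1a1+ chow and Col5a1 over Col5a2 from 3.64 to 1.10, while Col4a1 over Col4a2 stays between 2.06 and 2.44.

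Genes that process or bind collagen were described from 3 lists, 17 for folding and modification of chains, 12 for propeptide removal and crosslinking and 10 collagen receptors. No folding gene passed 2-fold between DEN+WAD and chow, with 0 of 15 compared in the VitA+Col1a1+ gate and 0 of 16 in the VitA-Col1a1+ gate. Of all genes 1.85% were higher and 4.48% lower in the VitA+Col1a1+ gate, and 5.33% and 5.94% in the VitA-Col1a1+ gate. A count of 0 in lists of this size is near these shares. Of the second list, 1 of 10 compared was higher with DEN+WAD in the VitA+Col1a1+ gate and 0 were lower. The higher one was Lox, the lysyl oxidase that starts crosslinking, at 7.07 against 0.976 CPM, a ratio of 7.24 (3.32 to 19.8) on 6 UMIs in chow. It was lower in the VitA-Col1a1+ gate, at 31.1 against 86.2 CPM, as were Pcolce2, an enhancer of propeptide removal, at 50.7 against 176 CPM, and Adamts3. These were 3 of the 11 compared in that gate. Among receptors, Ddr2, a tyrosine kinase that binds fibrillar collagen, had 143 against 303 CPM there, and Itga10 was also lower, so 2 of 7 compared were lower, beside 5.94% of all genes. In mesenchymal cells alone Ddr2 and Adamts3 were not past 2-fold, and Itga10, Lox and Pcolce2 were lower, beside 6.08% of all genes.

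Between gates with chow, 5 of the 11 processing genes compared were higher in VitA-Col1a1+ cells and 2 lower. Loxl1, a lysyl oxidase, was at 285 against 36.0 CPM, and Adamts2, which removes the amino propeptide of fibrillar procollagen, at 473 against 156 CPM. Of the 7 receptors compared 4 were higher, among them Mrc2, a receptor for collagen uptake, at 114 against 34.0 CPM, and 1 of 15 folding genes, Plod2, a lysyl hydroxylase, was higher at 133 against 28.8 CPM. Of all genes 12.5% were higher in this comparison and 5.75% lower. With DEN+WAD, 4 of 11 processing genes, 2 of 6 receptors and 0 of 15 folding genes were higher, beside 10.7% of all genes. Adamts14, another enzyme that removes the amino propeptide, was lower at 6.34 against 14.4 CPM, a ratio of 0.441 (0.390 to 0.498), beside 1.71%. In mesenchymal cells alone it was not past 2-fold.

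In the library labelled VitA-Col1a1- against VitA-Col1a1+ DEN+WAD, 0 of 15 folding genes were higher and 1 lower, 0 of 11 processing genes higher and 3 lower, and 2 of 8 receptors higher and 1 lower, beside 10.1% and 6.72% of all genes. Pcolce, the main enhancer of propeptide removal, had 225 against 602 CPM and Loxl1 91.8 against 195 CPM. The inhibitory collagen receptor Lair1 of immune cells was at 36.3 CPM, with no UMI in VitA-Col1a1+ DEN+WAD. The integrin subunit Itga2 had 8.75 against 1.62 CPM, and Itga11 3.19 against 11.2 CPM. In mesenchymal cells 2 of 11 processing genes were higher and 1 lower, and 2 of 7 receptors higher and 1 lower, beside 5.12% and 4.89% of all genes. Those higher were Loxl2 (300 against 134 CPM), Adamts14 (21.8 against 7.31 CPM), Itga1 (1000 against 477 CPM) and Itga2. Pcolce and Loxl1 were no longer past 2-fold there, and Pcolce2 and Itga11 were lower.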

How the data were processed

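Sorted liver cells were profiled by droplet 3′ single-cell RNA-seq. The authors aligned reads to mm10 and counted UMIs with Cell Ranger (3.1.0 per the headers of 4 libraries, 6.1.2 in the library labelled VitA-Col1a1-), and the deposited values are raw UMI counts per gene and barcode, with 500 UMIs or more in each barcode. The kit version is v3.1 or v2 depending on the label read. All barcodes were used, and no doublet caller was run. UMIs were summed per library and class (Python 3.11.15, numpy 2.4.6, scipy 1.17.1, pandas 2.3.3). Each group is 1 library, so values are ratios with exact conditional binomial 95% intervals, and levels of 0 were set at 3 UMIs for bounds. Members at 10 CPM or more in a library or in its mesenchymal, endothelial or macrophage cells (50 or more cells) were named, the others once with their highest level. The ratio step was tested on simulated data. TMM factors (edgeR 4.0.16) and median-of-ratios factors (DESeq2 1.42.0) served as alternatives (R 4.3.3). Cells under 2000 UMIs were left out of thinned shares (4 to 1439 a library). Gene positions are from GENCODE M21, which held all 44 members, and sequences from RefSeq on GRCm38.p6. Chain members and gene lists were chosen with earlier results of these data known.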

Additional observations from a re-analysis of the deposited data

Results flagged for a closer look

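Of the results above, 3 members that went in opposite directions in the 2 gates in mesenchymal cells are given here. These members are not the only ones. Over all cells Col1a2 and Col3a1 were also higher with DEN+WAD in the VitA+Col1a1+ gate and lower in the VitA-Col1a1+ gate. Each gate was 1 library with DEN+WAD against 1 with chow, and the difference between the gates was not tested. Col1a1 had a log2 ratio of 1.57 in the VitA+Col1a1+ gate and -0.81 in the VitA-Col1a1+ gate. Col15a1 had 4.16, a lower bound with the 0 UMIs of the chow library set at 3, and -0.36. Col18a1 had 2.04 and -0.18. Within kinds of mesenchymal cell of the VitA-Col1a1+ gate, a split added after seeing the data, Col15a1 did not keep its negative sign, with 0.38 in fibroblast-leading and 0.17 in stellate-leading cells. Col18a1 had 0.11 in fibroblast-leading and -1.13 in stellate-leading cells.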

How the results depend on the processing

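Each group held 1 library, so no library could be left out of a group. No paired analysis was possible because each group has a single library and no test was run. Each value rests on counting error alone, and VitA+Col1a1+ chow, with 259 cells, sets the depth of 2 of the 5 comparisons. The log2 ratio of summed collagen is given below in the order TMM scaling, median-of-ratios scaling, without the 5% of barcodes with the most UMIs, mean over cells, and mesenchymal cells only. For DEN+WAD against chow in the VitA+Col1a1+ gate (0.044) it was 0.17, 0.17, -0.055, -0.065 and 0.011, so its sign was not stable. For the VitA-Col1a1+ gate (-0.71) it was -0.66, -0.68, -0.68, -0.79 and -0.60. For the VitA- against the VitA+ gate it was 1.01, 1.03, 0.94, 0.95 and 1.11 with chow (1.09), and 0.17, 0.17, 0.31, 0.23 and 0.51 with DEN+WAD (0.34). For the library labelled VitA-Col1a1- against VitA-Col1a1+ (0.31) it was 0.29, 0.33, 0.57, 0.32 and 1.03, and 0.32 with barcodes of 2000 or more UMIs.

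Within mesenchymal cells the ratio moved most with stellate-marker cells only (3 or more stellate markers and no other list): -0.066 and -0.27 for DEN+WAD against chow in the VitA+Col1a1+ and VitA-Col1a1+ gates, 0.29 and 0.086 between gates with chow and DEN+WAD, and 1.23 for the library labelled VitA-Col1a1-. With stellate-leading cells, added after seeing the data, it was -0.0049 in the VitA+Col1a1+ gate, 0.88 and 0.29 between gates, and 1.14 for the labelled library, and with fibroblast-leading cells -0.34 in the VitA-Col1a1+ gate and 0.95 for the labelled library. With a threshold of 10 per 10000 it was -0.58 in the VitA-Col1a1+ gate, 0.53 between gates with DEN+WAD and 1.01 for the labelled library. With a threshold of 40 it was -0.56 in the VitA-Col1a1+ gate, 1.07 between gates with chow and 1.02 for the labelled library, which had 0.94 with other class rules ignored.

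Counts of members past 2-fold at a mean of 10 CPM or more were 1 higher and 2 lower (VitA+Col1a1+ gate), 0 lower (between gates, chow), and 9 higher and 0 lower (between gates, DEN+WAD). In the VitA-Col1a1+ gate 0 were higher in mesenchymal cells and 2 at a mean of 1 CPM, and for the labelled library 11 were higher and 1 lower in mesenchymal cells. In endothelial against mesenchymal cells, 1 was higher at 10 CPM and 9 lower with class overlaps allowed (VitA+Col1a1+ DEN+WAD), and 1 was higher under either setting in the labelled library. In macrophages 1 was higher with overlaps allowed. Apart from the counts in mesenchymal cells, no share over all genes was taken at these settings, so these counts cannot be set against one. The share of mesenchymal cells with a Col1a1 UMI was 52.6%, 84.9%, 56.6%, 97.5% and 84.0% at full depth (VitA+Col1a1+ DEN+WAD, VitA-Col1a1+ DEN+WAD, VitA+Col1a1+ chow, VitA-Col1a1+ chow, labelled VitA-Col1a1-), and 13.1%, 43.1%, 65.1% and 62.0% thinned to 1000 UMIs, VitA+Col1a1+ chow left aside. Between DEN+WAD and chow in the VitA-Col1a1+ gate, Col13a1 turned to -0.58 in mesenchymal cells and Col4a3 to 0.060 and Col4a6 to 0.32 in fibroblast-leading cells. The causes were not tested. Of the other values of single genes, 99 moved by less than their interval and 100 by more.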
